A study of Gallus gallus with 20 samples.

Results

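Liver RNA of Cornish and Ogye chickens was compared at 10 weeks of age, the older of the ages sampled in a study of how these breeds come to differ in weight. Cornish is a heavy meat breed. Ogye is a lighter native Korean breed with black skin and connective tissue. Of 20 libraries in the series, 10 were taken by the breed and age in their labels, 5 of Cornish and 5 of Ogye, all of liver at 10 weeks. No treatment, mutation or diet is given for any group, and sex, hour of sampling and body weight are not stated. Whether each library stands for its own bird is not stated either, and the p-values therefore reflect variation among libraries, which may be technical. The genes are the 13956 entries of the count table that carry a gene symbol, of 54062 entries in all, and 10195 of them had enough counts to be tested.

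The liver sits at the centre of growth control. Growth hormone acts on its receptor GHR in hepatocytes, which then release insulin-like growth factor IGF1 into the blood and make SOCS2 and CISH, proteins that damp the same signal. In birds the liver is also the main site of fatty acid synthesis, and it burns fatty acids, turns nitrogen waste into uric acid, clears foreign compounds through cytochrome P450 and conjugating enzymes, and secretes most plasma proteins. In inflammation it makes more acute phase proteins such as serum amyloid A and fibrinogen, and less albumin and transthyretin.

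Libraries held 14865637 to 25344237 counts, of which 9625549 to 16660178 fell on named genes. Levels are CPM, counts per 1000000 scaled counts of named genes, and libraries are numbered 1 to 5 within a breed. A difference is given as the log2 fold change of Cornish over Ogye ± its standard error, with n = 5 libraries per breed. A gene was called at an adjusted p below 0.05 over all 10195 genes by the quasi-likelihood test of edgeR with Benjamini-Hochberg adjustment. Albumin (ALB), which defines hepatocytes, took 11.5% to 18.0% of the named counts in Cornish and 4.09% to 19.1% in Ogye, as the liver label requires. Genes of the W chromosome, which only hens carry, were expressed in all 10 libraries, with summed levels of 6.23 to 6.42 on the log2 CPM scale in Cornish and 6.53 to 6.97 in Ogye.

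Several differences between the breeds ran the opposite way at 5 weeks. URAH stood at 6.61 to 10.5 CPM in Cornish and 0.363 to 0.916 CPM in Ogye at 10 weeks, but at 0.293 to 1.02 CPM in Cornish and 4.82 to 17.7 CPM in Ogye at 5 weeks, with all 20 libraries on one scale. SULT1B1 stood at 48.2 to 84.2 CPM in Cornish and 2.44 to 17.1 CPM in Ogye at 10 weeks, against 2.62 to 5.24 CPM in Cornish and 36.5 to 70.2 CPM in Ogye at 5 weeks. The libraries labelled Cornish at 10 weeks therefore resembled those labelled Ogye at 5 weeks in both genes, and the other way round.

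The opposite direction held in part across the table. Over the 10697 genes tested with both ages, the breed differences at 10 and 5 weeks had a rank correlation of -0.355. Of all 13956 named genes, the breeds did not overlap in 1342 at 10 weeks and in 765 at 5 weeks. They overlapped at neither age in 179 named genes. In 177 of these the breed that was higher at 10 weeks was the lower one at 5 weeks. The other 2 were ERMP1 and RNF149, higher in Cornish at both ages. Among 40097 assembled entries without a gene symbol, 1000 did not overlap at 10 weeks and 722 at 5 weeks. There the count with opposite directions was 113 of 118. Of the 1474 genes called at 10 weeks, 385 (26.1%) had the same sign at 5 weeks. The count was 241 (16.4%) without replicates 3, 4 and 5 of Ogye at 5 weeks. Earlier results of these data set those 3 libraries apart, which is not shown here. A turn of breed differences with age and an exchange of breed labels at 1 of the ages cannot be told apart from these counts. Cornish and Ogye below mean the libraries labelled so at 10 weeks, and every direction rests on those labels.

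**Figure D1:**
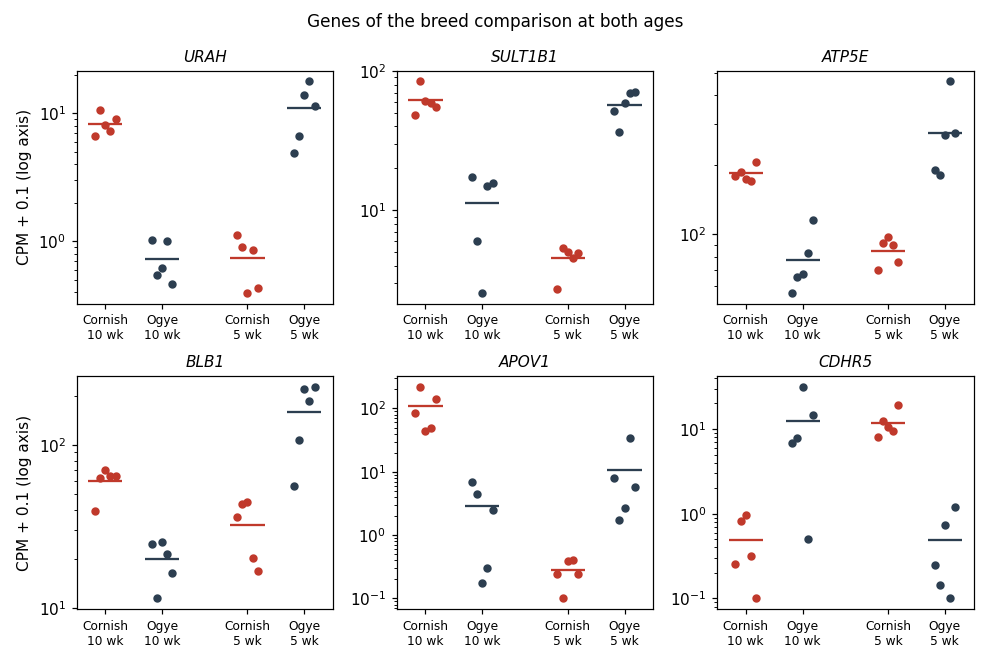
CPM + 0.1 (log axis) of 6 genes in the libraries of both breeds and ages, scaled together, with 1 point per library and a line at the mean of 5. In every panel the breed with the higher mean at 10 weeks has the lower mean at 5 weeks, and of these 6 genes CDHR5 alone overlaps between the breeds at 10 weeks.

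The Ogye libraries were also unlike each other. Serum amyloid A (SAA), a main acute phase protein of the liver, stood at 157, 141, 628, 179 and 50.9 CPM in Cornish replicates 1 to 5, and at 3446, 24890, 9696, 362 and 525 CPM in Ogye replicates 1 to 5. Ogye replicates 1, 2 and 3 were above every other library, and replicates 4 and 5 lay within the Cornish range. The 3 fibrinogen genes FGA, FGB and FGG together took 3.99% to 6.28% of named counts in Cornish, and 10.3%, 21.1%, 15.7%, 6.39% and 5.04% in Ogye. Albumin was lowest in Ogye replicates 2 and 3, at 4.09% and 4.86% of named counts. AHSG, a plasma protein that falls in inflammation, was at 8171 to 12850 CPM in Cornish and at 2651, 158, 1244, 7238 and 4243 CPM in Ogye. A principal component analysis put 45.0% of the variance on its first axis, where scores ran from -32.6 to -18.9 in Cornish and from 1.27 to 63.1 in Ogye, highest in replicates 1, 2 and 3. Neither the cause of this spread among Ogye libraries nor its part in the other differences was tested. Genes below stayed called without these 3 libraries unless a loss is given. That fit has 2 Ogye libraries, was added after these genes were seen, and assumes that the 2 vary like the 5 Cornish libraries.

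**Figure D2:**
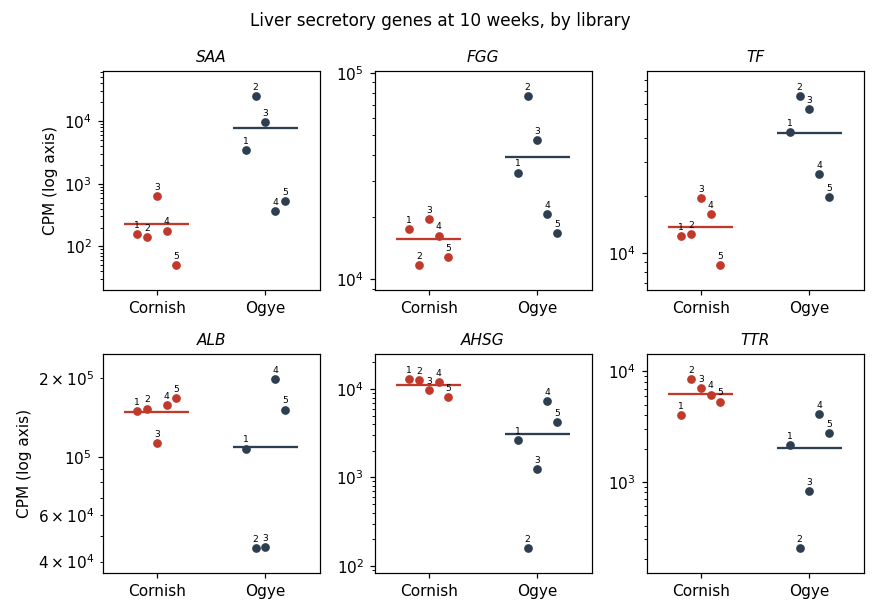
CPM (log axis) of 6 secreted proteins in each library at 10 weeks, with the replicate number above each point and a line at the mean of 5. Ogye replicates 1, 2 and 3 have the highest SAA, FGG and TF, and replicates 2 and 3 the lowest ALB, AHSG and TTR.

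In total 1474 genes were called between the breeds, 14.5% of those tested, 818 higher in Cornish (8.02%) and 656 lower (6.43%). The median log2 fold change of all tested genes was -0.01. A change of at least 1 on the log2 scale was found for 467 genes (4.58%), 274 higher and 193 lower. Libraries of the breeds did not overlap in 1285 tested genes (12.6%), and 1048 of these were called. Leaving out each library in turn gave 751 to 1919 calls, fewest without Cornish replicate 2 and most without Ogye replicate 5. A set of 603 genes kept its call in all 10 omissions, and 332 of the 1474 were also called without Ogye replicates 1, 2 and 3. Genes described below kept their call in each of the 10 omissions unless a loss is given. Losses with the summed W level as a covariate are not given for each gene. Of 92 called genes screened, 54 lost their call with it. The summed W level differs between the breeds without overlap, so this covariate and the breed cannot be told apart.

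**Figure D3:**
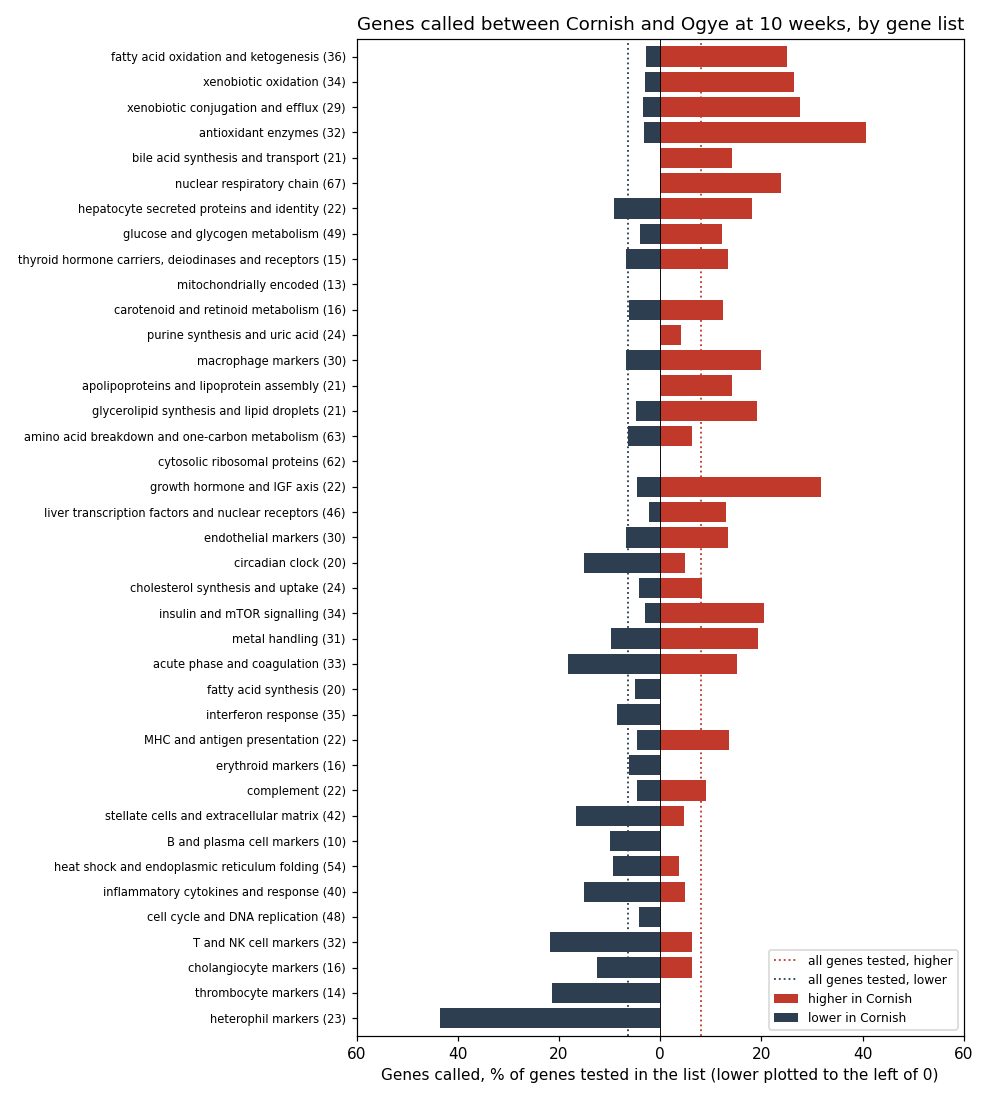
Share of the tested genes of each list that were called higher in Cornish (right of 0) or lower in Cornish (left of 0) at 10 weeks, in %, for lists with at least 10 tested genes, ordered by median log2 fold change. Dotted lines mark the shares over all tested genes, 8.02% higher and 6.43% lower, and the number tested stands in brackets.

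In the growth hormone and IGF axis both IGF ligands, a binding protein and the feedback inhibitors were higher in Cornish, and the receptor GHR was lower. Of 22 tested members 7 were higher and 1 was lower, with a median log2 fold change of 0.18 against -0.01 for all genes, and 5 of the higher ones kept their call in every omission. The share called was 36.4%, against 14.5% over all tested genes. The call of 3 of the 7 higher ones stayed without Ogye replicates 1, 2 and 3. IGF1, on chromosome 1 (55326358 to 55374742, build GRCg7b), stood at 27.4, 27.7, 23.9, 28.3 and 23.9 CPM in Cornish and at 13.1, 14.2, 6.78, 9.09 and 2.88 CPM in Ogye. Every Cornish library was above every Ogye library, the Cornish values were tight, and Ogye replicate 5 was the lowest (log2 fold change 1.52 ± 0.32, adjusted p = 0.014). IGF2, a second growth factor ligand, was at 116, 69.0, 134, 76.4 and 119 CPM in Cornish and at 46.8, 76.9, 44.2, 36.2 and 36.5 CPM in Ogye. Its breeds overlapped through Ogye replicate 2 alone, which exceeded 2 Cornish libraries (1.10 ± 0.25, adjusted p = 0.017).

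IGFBP2 encodes a protein that carries IGFs in blood, and it lies on chromosome 7 (22879236 to 22951723). It was at 17.6, 9.66, 4.07, 11.8 and 19 CPM in Cornish and at 2.25, 0.930, 0.761, 1.14 and 0.932 CPM in Ogye. The breeds did not overlap, and Cornish replicate 3 came nearest to Ogye (3.34 ± 0.45, adjusted p = 0.0016). The feedback inhibitor SOCS2 averaged 20.1 ± 9.46 CPM in Cornish and 5.77 ± 2.15 CPM in Ogye (SD, n = 5 each), without overlap (1.79 ± 0.34, adjusted p = 0.0089). CISH, the related inhibitor, was at 404, 303, 343, 285 and 210 CPM in Cornish and at 52.3, 205, 53.7, 48.0 and 58.1 CPM in Ogye. Ogye replicate 2 almost reached the lowest Cornish library, and without it the log2 fold change of 1.89 ± 0.42 (adjusted p = 0.016) became 2.54.

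GHR, the receptor through which growth hormone raises IGF1, SOCS2 and CISH, lies on the Z chromosome and was lower in Cornish. It was at 453, 614, 607, 631 and 635 CPM in Cornish and at 1043, 718, 727, 849 and 1096 CPM in Ogye, again with no overlap. Its difference was smaller (-0.59 ± 0.17, adjusted p = 0.041), and the call held in 1 of 10 omissions, with an adjusted p of up to 0.095. It was kept without Ogye replicate 2 only, and with a W-linked covariate the sign turned (0.04). IGF1, IGF2, IGFBP2, SOCS2 and CISH lost their call with that covariate too (adjusted p from 0.075 for IGFBP2 to 0.86 for IGF2). Since the covariate cannot be told apart from the breed, these losses and the turn of GHR do not bear on the single genes. IGF1, IGF2, CISH and GHR were also called without Ogye replicates 1, 2 and 3, while IGFBP2 (3.57, adjusted p = 0.055) and SOCS2 (1.35, adjusted p = 0.19) were not.

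Of 34 genes of insulin and mTOR signalling 7 were higher in Cornish and 1 was lower, with a median of 0.03. That is 23.5% called, against 14.5% over all tested genes. Leaving out 1 library gave 5 to 7 higher, and 3 of the 7 stayed called without Ogye replicates 1, 2 and 3. PTPN1, a phosphatase that switches off the insulin receptor, was at 65.4, 79.5, 55.7, 78.9 and 100 CPM in Cornish and at 29.4, 25.9, 25.8, 24.2 and 19.7 CPM in Ogye. All Cornish libraries were well above all Ogye libraries (1.60 ± 0.16, adjusted p = 0.0004), and without Ogye replicates 1, 2 and 3 the log2 fold change was 1.79. The insulin receptor INSR was higher by 0.60 ± 0.11 (adjusted p = 0.0071) and the receptor substrate IRS4 by 1.85 ± 0.36 (adjusted p = 0.0096). Neither gene overlapped between the breeds, and without Ogye replicates 1, 2 and 3 INSR just missed the threshold (0.50, adjusted p = 0.054). The 1 lower member was the substrate IRS1, which averaged 20.3 ± 5.35 CPM in Cornish and 34.6 ± 5.01 CPM in Ogye (SD, n = 5 each; -0.77 ± 0.17, adjusted p = 0.016).

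Several genes that burn fatty acids were higher in Cornish, and of the genes that make them 1 was called. In the oxidation and ketogenesis list 9 of 36 members were higher and 1 was lower, 27.8% called against 14.5% over all tested genes. In this list 33 had a positive log2 fold change and the median was 0.63. Leaving out 1 library gave 4 to 13 higher members, fewest without Cornish replicate 2, and without Ogye replicates 1, 2 and 3 the median was 0.20 and the call of 1 of the 9 stayed. CPT1A, the gate for fatty acids into mitochondria, was at 98.5, 128, 124, 126 and 311 CPM in Cornish and at 45.9, 25.0, 44.3, 37.2 and 33.8 CPM in Ogye. The breeds were clearly apart and Cornish replicate 5 was far above its group (2.08 ± 0.31, adjusted p = 0.0027). The coactivator PPARGC1A, which raises mitochondrial and gluconeogenic genes, was at 11.2, 23.4, 20.1, 23.5 and 30.9 CPM in Cornish and at 3.95, 2.58, 1.45, 4.07 and 1.02 CPM in Ogye. Its highest Ogye library reached less than its lowest Cornish library (3.07 ± 0.38, adjusted p = 0.0011).

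The mitochondrial dehydrogenase HADH was higher by 0.63 ± 0.15 (adjusted p = 0.018). The 1 lower member was ACSBG2, an acyl-CoA synthetase, at 88.9 to 584 CPM in Cornish and 659 to 1212 CPM in Ogye (-1.87 ± 0.46, adjusted p = 0.024). It lost its call without Cornish replicate 2 (adjusted p = 0.057) and without Ogye replicate 3 (adjusted p = 0.050). Without Ogye replicates 1, 2 and 3 PPARGC1A stayed called (3.12, adjusted p = 0.040), and CPT1A, HADH and ACSBG2 did not.

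Lipins and the fat-releasing lipase PNPLA2 moved in the same direction. LPIN2, a phosphatidate phosphatase on chromosome 2 (100615990 to 100655786), was at 222, 483, 426, 594 and 514 CPM in Cornish and at 89.6, 66.1, 43.1, 73.4 and 58.8 CPM in Ogye. All Cornish libraries were above all Ogye libraries, with Cornish replicate 1 the lowest of its breed (2.76 ± 0.27, adjusted p = 0.0004). LPIN1, its paralogue and a partner of PPARGC1A, was higher by 1.91 ± 0.39 (adjusted p = 0.012). PNPLA2, which starts the breakdown of stored triglyceride, averaged 176 ± 34.1 CPM in Cornish and 84.7 ± 14.4 CPM in Ogye (SD, n = 5 each; 1.06 ± 0.16, adjusted p = 0.0027). In the list of glycerolipid and lipid droplet genes 4 of 21 members were higher and 1 was lower, with a median of 0.21. That is 23.8% called, against 14.5% over all tested genes. LPIN2 and PNPLA2 stayed called without Ogye replicates 1, 2 and 3, and LPIN1 did not (1.75, adjusted p = 0.21).

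Of 20 fatty acid synthesis genes 1 was called (5%, against 14.5% over all tested genes), with a median of -0.01. FASN, the fatty acid synthase, was at 7448, 7081, 5792, 7242 and 3041 CPM in Cornish and at 8329, 1519, 5615, 9902 and 16020 CPM in Ogye. The Ogye libraries spanned the whole Cornish range, lowest in replicate 2 and highest in replicate 5 (-0.44 ± 0.49, adjusted p = 0.57). THRSP, a thyroid-responsive regulator of the same pathway, was at 1358 to 2714 CPM in Cornish and 40.2 to 3887 CPM in Ogye (0.34 ± 0.74, adjusted p = 0.79). The called gene was ACSS2, which makes acetyl-CoA from acetate, lower by 1.42 on the log2 scale (-1.42 ± 0.39, adjusted p = 0.035). It kept its call in 3 of 10 omissions, without Cornish replicate 3 or Ogye replicate 4 or 5, with an adjusted p of up to 0.079. Without Ogye replicates 1, 2 and 3 it was at -0.62 (adjusted p = 0.46).

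Sugar and thyroid hormone genes held a few wide differences. DIO2, which activates thyroid hormone by turning T4 into T3, was at 314, 298, 239, 201 and 344 CPM in Cornish and at 11.5, 37.8, 7.82, 44.0 and 6.53 CPM in Ogye. No Ogye library came near a Cornish one (3.70 ± 0.55, adjusted p = 0.0027), and without Ogye replicates 1, 2 and 3 the log2 fold change was 3.48 (adjusted p = 0.063). The carrier TTR was at 4041 to 8481 CPM in Cornish and 250 to 4107 CPM in Ogye and was not called (1.62 ± 0.58, adjusted p = 0.085). Of 15 thyroid members 2 were higher and 1 was lower, with a median of 0.29. That is 20% called, against 14.5% over all tested genes. Without Ogye replicates 1, 2 and 3 the call of 0 of them stayed, and the median was 0.1.

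In the glucose and glycogen list 6 of 49 members were higher and 2 were lower, with a median of 0.31, and leaving out 1 library gave 3 to 11 higher. The share called in this list, 16.3%, is close to the 14.5% over all tested genes. The call of 0 of the 6 stayed without Ogye replicates 1, 2 and 3, with a median of 0.04. PCK1, the key step of gluconeogenesis, was at 161, 281, 122, 354 and 99.9 CPM in Cornish and at 22.9, 0.103, 2.63, 52.0 and 23.5 CPM in Ogye. The breeds did not overlap, but Ogye values were scattered, and the call (3.33 ± 0.92, adjusted p = 0.037) held in 2 of 10 omissions, without Ogye replicate 2 or 4, with an adjusted p of up to 0.077. Without Ogye replicate 4 the log2 fold change was 4.04, and without Ogye replicates 1, 2 and 3 it was 2.44 (adjusted p = 0.11). PDHA2, a subunit of pyruvate dehydrogenase, went lower and was steadier, at 144 to 185 CPM in Cornish and 245 to 351 CPM in Ogye (-0.84 ± 0.13, adjusted p = 0.0031). GALK1, which brings galactose into metabolism, and SLC37A4, which carries glucose 6-phosphate into the endoplasmic reticulum, were higher by 1.30 ± 0.24 (adjusted p = 0.0071) and 0.60 ± 0.14 (adjusted p = 0.019). Neither stayed called without the 3 Ogye libraries (0.95 and 0.43, adjusted p = 0.11 and 0.15).

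Of 21 bile acid genes 3 were higher and the others were not called, with a median of 0.38. The share called, 14.3%, is close to the 14.5% over all tested genes. CYP7A1, the rate-limiting enzyme, was at 71.7, 43.0, 22, 15.7 and 4.65 CPM in Cornish and at 132, 30.3, 120, 276 and 183 CPM in Ogye. Cornish replicates 1 and 2 exceeded Ogye replicate 2, and the difference narrowly missed the threshold (-2.24 ± 0.69, adjusted p = 0.052). The uptake carrier SLCO2B1 was at 35.1 to 53.4 CPM in Cornish and 9.62 to 26.2 CPM in Ogye (0.99 ± 0.22, adjusted p = 0.017).

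Among enzymes that clear foreign compounds and hormones, more were higher than lower in Cornish at both steps of the pathway. Of 34 oxidation genes 9 were higher and 1 was lower, with a median of 0.60, and of 29 conjugation and efflux genes 8 were higher and 1 was lower, with a median of 0.43. The shares called were 29.4% and 31%, against 14.5% over all tested genes. Leaving out 1 library gave 5 to 12 higher oxidation genes and 4 to 9 higher conjugation genes, most without Ogye replicate 5 in each list. The call of 4 of the 9 and 2 of the 8 stayed without Ogye replicates 1, 2 and 3, and the medians were 0.28 and 0.26. CYP2C18, a cytochrome P450 on chromosome 6 (17340688 to 17345965), was at 2102, 1080, 1232, 1151 and 936 CPM in Cornish and at 34.7, 132, 34.5, 6.92 and 29.6 CPM in Ogye. The breeds were widely apart, Ogye replicate 2 was the highest of its breed, and without it the log2 fold change of 4.78 ± 0.68 (adjusted p = 0.0022) was 5.62. Reads of P450 genes of 1 family can be shared between near copies, so the values of CYP2C18 and CYP3A4 are less certain.

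CYP1A1, the classical target of the aryl hydrocarbon receptor, was at 52.0, 27.9, 9.73, 32.7 and 19.8 CPM in Cornish and at 1.78, 0.724, 1.66, 10.6 and 3.56 CPM in Ogye. Ogye replicate 4 lay just above Cornish replicate 3, and without it the log2 fold change of 2.97 ± 0.64 (adjusted p = 0.015) was 3.85. CYP3A4, a drug and steroid oxidase, averaged 29.7 ± 7.46 CPM in Cornish and 8.09 ± 2.90 CPM in Ogye (SD, n = 5 each; 1.87 ± 0.24, adjusted p = 0.0011), and CYP4V2, a fatty acid hydroxylase, was higher by 1.16 ± 0.26 (adjusted p = 0.017). CYP1B1, which in mammals is expressed mostly outside hepatocytes, was the 1 lower gene, at 0.949 to 1.89 CPM in Cornish and 3.18 to 5.97 CPM in Ogye (-1.68 ± 0.25, adjusted p = 0.0022).

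Among conjugating enzymes, the sulfotransferase SULT1B1 was at 45.4, 78.9, 57.2, 55.5 and 51.7 CPM in Cornish and at 16.0, 5.48, 2.28, 13.9 and 14.5 CPM in Ogye, on the scaling of the 10 libraries. The lowest Cornish library was far above the highest Ogye one (2.47 ± 0.43, adjusted p = 0.0060). UGT1A1, which glucuronidates bilirubin and drugs, was at 678 to 1723 CPM in Cornish and 100 to 422 CPM in Ogye (1.87 ± 0.40, adjusted p = 0.014). The glutathione transferase GSTT1L was at 21.0 to 114 CPM in Cornish and 6.43 to 10.2 CPM in Ogye (2.49 ± 0.47, adjusted p = 0.0082), and its log2 fold change was 1.81 without Cornish replicate 2. SLC22A4, a carrier of organic cations, was higher by 1.28 ± 0.18 (adjusted p = 0.0015). Of the detoxification genes named, CYP2C18, CYP3A4, CYP4V2, CYP1B1, SULT1B1 and SLC22A4 stayed called without Ogye replicates 1, 2 and 3, and CYP1A1, UGT1A1 and GSTT1L did not (adjusted p = 0.21, 0.11 and 0.21).

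The antioxidant list had the highest share of higher members among the lists with at least 10 tested genes. Of 32 members 13 were higher and 1 was lower, with a median of 0.41, but 4 of the 13 kept their call in every omission and 1 without Ogye replicates 1, 2 and 3. The share called was 43.8%, against 14.5% over all tested genes. Leaving out Cornish replicate 2 or Ogye replicate 1 or 3 left 4 higher. PRDX1, a peroxiredoxin, was at 364 to 530 CPM in Cornish and 222 to 274 CPM in Ogye (0.80 ± 0.14, adjusted p = 0.0056). GCLC, which limits glutathione synthesis, was at 125 to 306 CPM in Cornish and 46.3 to 84.5 CPM in Ogye (1.46 ± 0.27, adjusted p = 0.0071). GPX1 and the methionine sulfoxide reductase MSRA were higher by 0.59 ± 0.12 (adjusted p = 0.012) and 0.64 ± 0.10 (adjusted p = 0.0028). None of the 4 overlapped between the breeds, and MSRA was the one that stayed called without the 3 Ogye libraries.

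Subunits of the respiratory chain encoded in the nucleus had 16 of 67 members higher and the others not called, with 63 positive and a median of 0.37. This count was not steady, since leaving out 1 library gave 3 higher members without Ogye replicate 3 and 42 without Ogye replicate 5. With all libraries 23.9% were called, against 14.5% over all tested genes. The call of 1 of the 16 stayed without Ogye replicates 1, 2 and 3, and the median was 0.13. The 2 that kept their call in every omission were NDUFV1 of complex I, at 92.7 to 107 CPM in Cornish and 36.5 to 84.4 CPM in Ogye (0.90 ± 0.20, adjusted p = 0.016), and ATP5E of ATP synthase, described below. NDUFV1 was not called without Ogye replicates 1, 2 and 3 (0.47, adjusted p = 0.096). Of 13 genes encoded by mitochondrial DNA 0 were called by edgeR, DESeq2 or limma-voom and 0 had an unadjusted p below 0.05, with a median of 0.28. Of 62 cytosolic ribosomal proteins edgeR called 0, with a median of 0.19, while 13 were higher and 1 lower at an unadjusted p below 0.05, and DESeq2 and limma-voom called 10 and 9 higher.

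URAH, which acts after urate oxidase in other animals, had the lowest adjusted p of the genes named. It lies on chromosome 11 (18508353 to 18509994) and was at 6.23, 9.80, 7.49, 6.84 and 8.34 CPM in Cornish and at 0.853, 0.414, 0.485, 0.853 and 0.339 CPM in Ogye. Both breeds were tight and far apart (3.69 ± 0.26, adjusted p = 2.9e-05), also without Ogye replicates 1, 2 and 3 (3.71, adjusted p = 0.0014). It was the 1 member called of 24 purine and uric acid genes (4.17%, against 14.5% over all tested genes), whose median was 0.25.

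**Figure D4:**
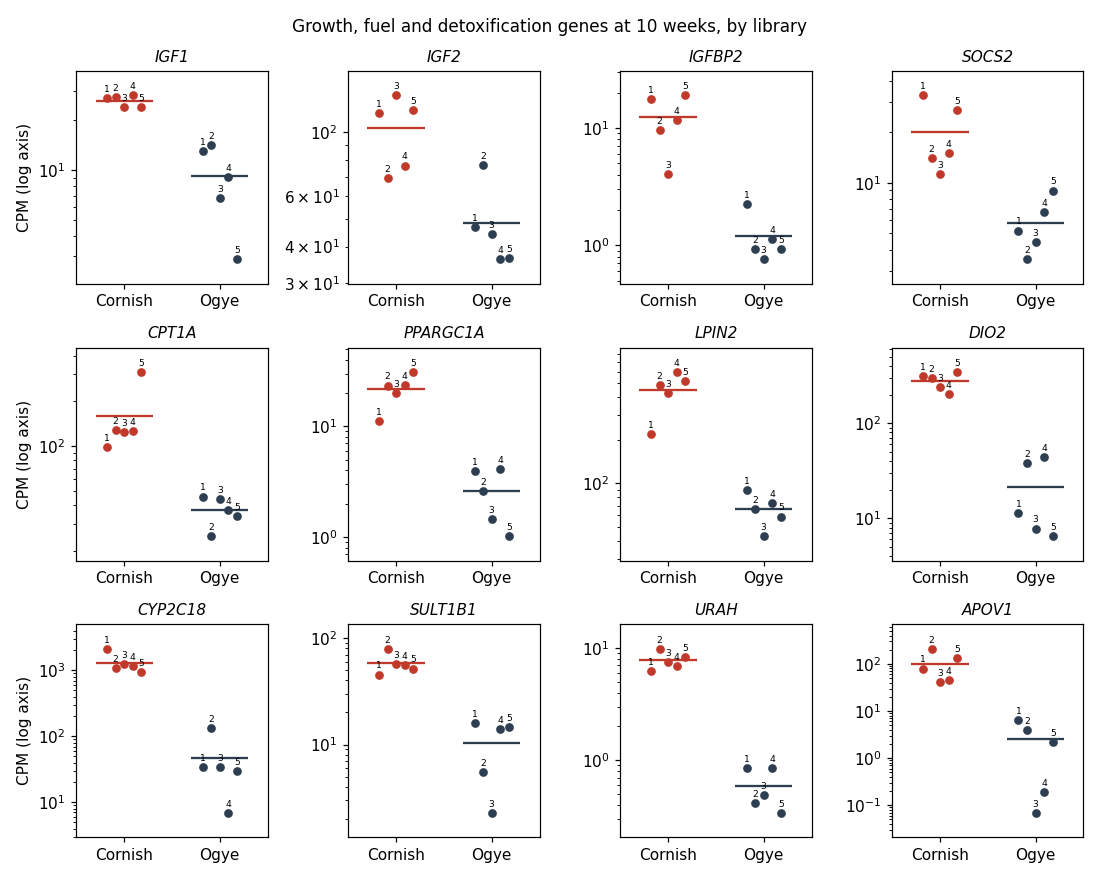
CPM (log axis) of 12 genes in each library at 10 weeks, with the replicate number above each point and a line at the mean of 5. Cornish libraries lie above all Ogye libraries in each panel except IGF2, where Ogye replicate 2 at 76.9 CPM exceeds Cornish replicates 2 and 4.

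Further genes with wide differences belong to other functions. APOV1, an apolipoprotein of yolk particles that the laying hen makes under estrogen, was at 79.8, 207, 41.3, 46.0 and 130 CPM in Cornish and at 6.43, 4.03, 0.0692, 0.190 and 2.20 CPM in Ogye. It had the largest log2 fold change of the genes that the rule for naming took (5.29 ± 0.84, adjusted p = 0.0038), 6.02 without Ogye replicate 1. CA4, a carbonic anhydrase, was at 98.6 to 390 CPM in Cornish and 2.29 to 36.1 CPM in Ogye (3.84 ± 0.74, adjusted p = 0.0094), and was 4.65 without Ogye replicate 4. Without Ogye replicates 1, 2 and 3 it was not called (3.30, adjusted p = 0.18). SSTR1, a receptor for somatostatin, was at 171, 107, 160, 193 and 133 CPM in Cornish and at 9.69, 15.3, 5.40, 26.1 and 21.4 CPM in Ogye. Its breeds were far apart (3.30 ± 0.38, adjusted p = 0.00099), also without Ogye replicates 1, 2 and 3 (2.69, adjusted p = 0.0014). SYT8, a synaptotagmin, and FRMD1, a FERM domain protein, were higher by 2.90 ± 0.40 and 2.89 ± 0.31 (adjusted p = 0.0015 and 0.00043).

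Other genes were lower in Cornish. They include GPR173, an orphan receptor, at 0.0676 to 0.708 CPM in Cornish and 3.41 to 6.44 CPM in Ogye (-4.03 ± 0.41, adjusted p = 0.0004), CFAP20DC (-2.86 ± 0.35, adjusted p = 0.0011) and the proton pump subunit ATP6V0D2 (-2.76 ± 0.52, adjusted p = 0.0074). Leaving out Cornish replicate 3 moved GPR173 to -4.71 and ATP6V0D2 to -3.41, and ATP6V0D2 was not called without Ogye replicates 1, 2 and 3 (-1.86, adjusted p = 0.12). CDHR5, a cadherin of intestinal and renal microvilli, was at 0 to 0.826 CPM in Cornish and at 6.20, 7.13, 29.6, 0.379 and 13.6 CPM in Ogye. Ogye replicate 4 lay within the Cornish range, and the log2 fold change of -4.81 ± 0.96 (adjusted p = 0.011) was -4.07 without Ogye replicate 3. Without Ogye replicates 1, 2 and 3 it was -4.11 (adjusted p = 0.11), and limma-voom did not call it. Among abundant genes, the dehydrogenase DHRS7 was at 1222 to 1355 CPM in Cornish and 459 to 801 CPM in Ogye (1.06 ± 0.16, adjusted p = 0.0025), and the serpin SPIA4 was higher by 1.87 ± 0.44 (adjusted p = 0.021). IFT80, an intraflagellar transport gene, was lower, at 30.7 to 90.5 CPM in Cornish and 162 to 398 CPM in Ogye (-1.83 ± 0.35, adjusted p = 0.0086), but was not called without the 3 Ogye libraries (-1.51, adjusted p = 0.079).

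Plasma proteins moved both ways. In the acute phase and coagulation list 5 of 33 members were higher and 6 were lower, with a median of about 0, and its summed level was 125000 to 185300 CPM in Cornish and 137500 to 463300 CPM in Ogye. A share of 33.3% was called, against 14.5% over all tested genes. Higher were the inhibitors SERPINC1 (antithrombin; 1.14 ± 0.26, adjusted p = 0.017) and AMBP (0.72 ± 0.17, adjusted p = 0.017), and coagulation factor F11, at 46.0 to 57.0 CPM in Cornish and 26.9 to 34.4 CPM in Ogye (0.77 ± 0.10, adjusted p = 0.0013). Without Ogye replicates 1, 2 and 3 AMBP was not called (0.52, adjusted p = 0.10). Lower was TF, the iron carrier transferrin, which avian liver raises in the acute phase, at 12310, 12620, 19340, 15970 and 8727 CPM in Cornish and at 42760, 65930, 56330, 25860 and 19690 CPM in Ogye. The breeds did not overlap, although Cornish replicate 3 and Ogye replicate 5 were nearly equal, and the call (-1.61 ± 0.36, adjusted p = 0.016) was lost without Ogye replicates 1, 2 and 3 (-0.72, adjusted p = 0.17).

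SAA was lower by 5.07 on the log2 scale (-5.07 ± 1.22, adjusted p = 0.023). Its call was lost without Cornish replicate 1, 2 or 4 (adjusted p up to 0.058), and its value was -3.92 without Ogye replicate 2, -5.88 without Cornish replicate 3, and -0.94 (adjusted p = 0.60) without Ogye replicates 1, 2 and 3. The copper carrier CP was at 380 to 1439 CPM in Cornish and 1350 to 16660 CPM in Ogye (-2.89 ± 0.70, adjusted p = 0.023), with -0.82 (adjusted p = 0.36) without the 3 libraries and -2.05 without Ogye replicate 2. CP lost its call without Cornish replicate 2, 4 or 5 (adjusted p up to 0.056). FGG was called at -1.32 ± 0.40 (adjusted p = 0.045) and kept its call in 2 of 10 omissions, without Ogye replicate 4 or 5, with an adjusted p of up to 0.10, and it was at -0.26 (adjusted p = 0.58) without Ogye replicates 1, 2 and 3. FGA and FGB were not called at -1.16 ± 0.39 and -1.16 ± 0.38 (adjusted p = 0.064 and 0.061), nor were AHSG (1.84 ± 0.71, adjusted p = 0.10) and ALB (0.44 ± 0.41, adjusted p = 0.49).

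Complement had 2 of 22 members higher and 1 lower, a share of 13.6% called against 14.5% over all tested genes. C4, a core component of the classical pathway in the major histocompatibility region, was at 840 to 1198 CPM in Cornish and 308 to 580 CPM in Ogye (1.05 ± 0.19, adjusted p = 0.0067). CLU, which restrains the terminal complex, was at 11.1 to 18.9 CPM in Cornish and 27.7 to 74.4 CPM in Ogye (-1.60 ± 0.28, adjusted p = 0.0055). Both stayed called without the 3 Ogye libraries.

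Several markers of heterophils, the avian counterpart of neutrophils, were lower in Cornish. Of 28 markers measured, 23 were tested, 10 of these were lower and the others were not called, 21 were negative and the median was -0.97. The share called was 43.5%, against 14.5% over all tested genes. The call of 2 of the 10 stayed without Ogye replicates 1, 2 and 3, and the median was -0.71. The summed level of all 28 was 1637 to 3404 CPM in Cornish and 3086 to 9478 CPM in Ogye, so that these sums overlapped, and 1 marker was at 0 in every library. The highest sum was in Ogye replicate 5. There LYG2, AvBD7, LECT2, TGM3 and CATH2, given below, were the lowest of the Ogye libraries, so the sums did not follow these markers. In a bulk sample fewer cells of a type and less RNA per cell cannot be told apart, and their part in other results was not tested. LYG2, a goose-type lysozyme on chromosome 1 (132632026 to 132635432), was at 107, 21.0, 74.9, 62.2 and 38.1 CPM in Cornish and at 441, 826, 1000, 656 and 419 CPM in Ogye. Every Ogye library was far above every Cornish library (-3.46 ± 0.44, adjusted p = 0.0012), and the log2 fold change was -3.14 (adjusted p = 0.034) without Ogye replicates 1, 2 and 3. Among the Ogye libraries LYG2 did not follow AvBD7, LECT2 and CATH2, described next, which were highest in replicate 1.

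AvBD7, a beta-defensin stored in heterophil granules, was at 2.90, 1.08, 0.531, 0.746 and 1.45 CPM in Cornish and at 74.1, 11.2, 20.6, 14.0 and 5.26 CPM in Ogye. The breeds did not overlap, and Ogye replicate 1 stood far above its group (-4.25 ± 0.77, adjusted p = 0.0071, and -3.27 without it). LECT2, a chemotactic factor, was at 10.8, 3.72, 2.48, 1.63 and 4.85 CPM in Cornish and at 191, 18.2, 42.6, 32.3 and 10.3 CPM in Ogye. Ogye replicate 1 was again the highest, and Ogye replicate 5 lay just below Cornish replicate 1 (-3.66 ± 0.84, adjusted p = 0.019, and -2.48 without Ogye replicate 1). The transglutaminase TGM3 was lower by 4.07 on the log2 scale (-4.07 ± 0.83, adjusted p = 0.012). It moved to -3.12 without Ogye replicate 1 and to -5.03 without Cornish replicate 1. The cathelicidin CATH2 (-3.33 ± 0.77, adjusted p = 0.020) was -2.35 without Ogye replicate 1 and lost its call without Cornish replicate 2 (adjusted p = 0.051). AvBD7 stayed called without Ogye replicates 1, 2 and 3, and LECT2, TGM3 and CATH2 did not (adjusted p = 0.16, 0.075 and 0.086). Leaving out Cornish replicate 2 left 4 lower markers, and leaving out Ogye replicate 5 gave 14. Defensins and cathelicidins are families of similar neighbouring genes, so their single values are less certain.

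Other genes of myeloid cells were also lower. PROK2, a chemokine-like peptide, was at 0.291 to 1.38 CPM in Cornish and 3.88 to 12.1 CPM in Ogye (-3.24 ± 0.41, adjusted p = 0.0011). RNASE6, an antimicrobial ribonuclease, was at 1.35 to 2.30 CPM in Cornish and 5.17 to 37.2 CPM in Ogye (-3.12 ± 0.54, adjusted p = 0.0056, and -2.40 without Ogye replicate 3). The decoy receptor IL1R2 was highest in Ogye replicates 1, 2 and 3, at 10.3, 17.8 and 17.7 CPM, against 3.22 and 3.31 CPM in replicates 4 and 5 and 0.608 to 2.36 CPM in Cornish (-2.55 ± 0.55, adjusted p = 0.015). Without those 3 libraries it was -0.86 (adjusted p = 0.27). EPX, the eosinophil peroxidase, was at 18.7 CPM in Ogye replicate 1, and its difference (-3.09 ± 0.82, adjusted p = 0.032) was -1.88 (adjusted p = 0.052) without it. EPX also lost its call without any single Cornish library (adjusted p up to 0.073), and without Ogye replicates 1, 2 and 3 (adjusted p = 0.26).

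Macrophage markers did not follow the heterophil ones. Of 30 tested members 6 were higher and 2 were lower, 26.7% called against 14.5% over all tested genes. The median was 0.23, but 1 of the higher ones kept its call in every omission. Their summed level was 4463 to 4980 CPM in Cornish and 3404 to 3985 CPM in Ogye. Of 40 inflammatory genes 2 were higher and 6 were lower, and of 35 interferon response genes 3 were lower and the others not called, with medians of -0.32 and -0.03. The shares called were 20% and 8.57%, against 14.5% over all tested genes, so the interferon share was below that of all genes. Leaving out 1 library gave 2 to 7 lower inflammatory genes, fewest without Cornish replicate 2 or Ogye replicate 3, and 2 to 5 lower interferon genes. The call of 0 of these 6 and 3 lower genes and of 0 of the 6 higher macrophage markers stayed without Ogye replicates 1, 2 and 3, and the inflammatory median was -0.02.

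T cell markers were lower in part. Of 32 tested T and NK cell genes 2 were higher and 7 were lower, with 25 negative and a median of -0.36, and their summed level was 187 to 297 CPM in Cornish and 288 to 385 CPM in Ogye. A share of 28.1% was called, against 14.5% over all tested genes. Leaving out Cornish replicate 2 or Ogye replicate 1 or 3 left 2 lower, and without Ogye replicates 1, 2 and 3 the call of 1 of the 7 stayed, with a median of -0.09. CD3D, a chain of the T cell receptor complex, was at 12.9, 12.97, 17.1, 15.0 and 13.4 CPM in Cornish and at 29.9, 23.3, 25.8, 21.0 and 24.5 CPM in Ogye. The breeds were apart and evenly so (-0.80 ± 0.12, adjusted p = 0.0022). The costimulator CD28 went the other way, at 6.25 to 8.81 CPM in Cornish and 2.09 to 5.68 CPM in Ogye (1.18 ± 0.26, adjusted p = 0.014), but was not called without Ogye replicates 1, 2 and 3 (0.74, adjusted p = 0.15). Thrombocyte genes had 3 of 14 members lower and the others not called, 21.4% against 14.5% over all tested genes. Their summed level was 86.0 to 107 CPM in Cornish and 85.5 to 179 CPM in Ogye. F13A1, a coagulation transglutaminase also found in macrophages, was at 2.09 to 4.85 CPM in Cornish and at 23.3, 47.2, 40.6, 17.3 and 3.48 CPM in Ogye (-3.14 ± 0.58, adjusted p = 0.0077). Ogye replicate 5 lay within the Cornish range, and without Ogye replicates 1, 2 and 3 the gene was not called (-1.79, adjusted p = 0.13). The platelet glycoprotein GP9 was at 0.291 to 0.826 CPM in Cornish and 0.932 to 2.27 CPM in Ogye (-1.67 ± 0.34, adjusted p = 0.011), and without the 3 Ogye libraries it was at -1.53 (adjusted p = 0.12).

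The class II genes of the major histocompatibility complex, which show peptides to T cells, went opposite ways. BLB1 and BLB2 encode beta chains and are neighbours on chromosome 16, BLB1 at 2185532 to 2187356 and BLB2 at 2192787 to 2194303. BLB1 was at 36.6, 58.7, 65.5, 61.0 and 60.5 CPM in Cornish and at 22.8, 10.4, 23.5, 20.1 and 15.1 CPM in Ogye. BLB2 was at 20.8, 32.7, 35.6, 38.2 and 35.6 CPM in Cornish and at 107, 80.2, 137, 110 and 84.4 CPM in Ogye. The breeds did not overlap in either gene, with the Cornish libraries higher in BLB1 and lower in BLB2. The log2 fold changes were 1.61 ± 0.22 for BLB1 (adjusted p = 0.0017) and -1.67 ± 0.19 for BLB2 (adjusted p = 0.0006), and both held without Ogye replicates 1, 2 and 3.

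BG1, a nearby gene of the B-G family at 2170224 to 2175392, was at 46.6 to 102 CPM in Cornish and 3.21 to 29.8 CPM in Ogye (2.45 ± 0.45, adjusted p = 0.0079). Without Ogye replicates 1, 2 and 3 it just missed the threshold (1.83, adjusted p = 0.051). CD1B, which presents lipids, was higher by 1.04 ± 0.16 (adjusted p = 0.0028). Of 22 antigen presentation genes 3 were higher and 1 was lower, a share of 18.2% called against 14.5% over all tested genes. These are polymorphic genes with similar copies, and reads of another haplotype than the reference may be counted elsewhere, so their levels are uncertain.

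**Figure D5:**
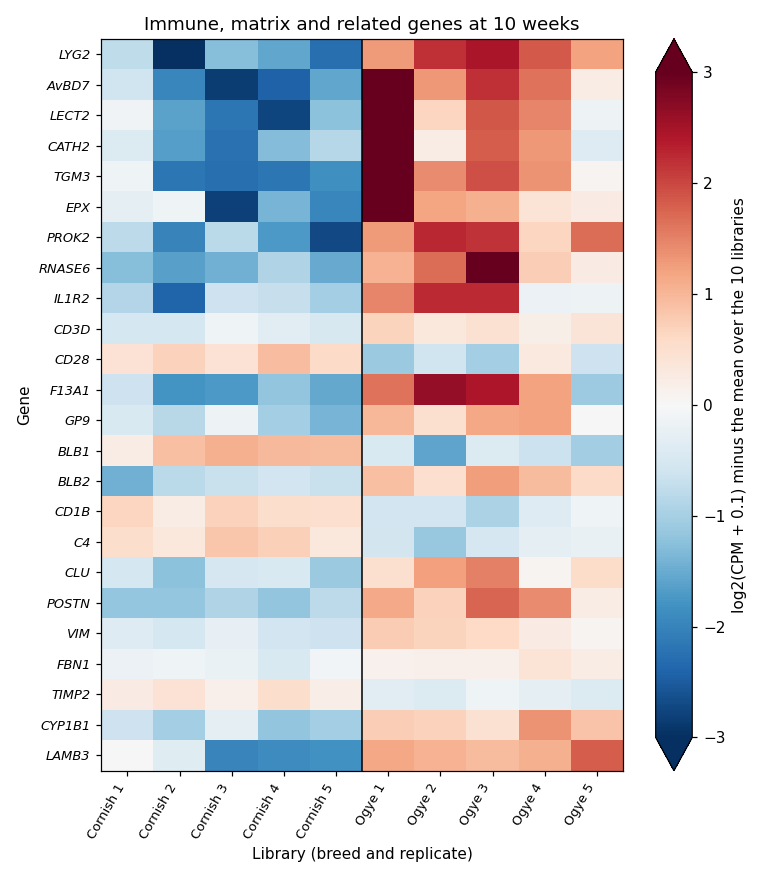
Each cell is the log2(CPM + 0.1) of a gene (row) in a library (column) minus the mean of that gene over the 10 libraries, with Cornish left of the line and Ogye right of it. Ogye replicate 1 is the highest in AvBD7, LECT2, CATH2, TGM3 and EPX, while CD3D and BLB2 are higher in all 5 Ogye libraries.

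Of 42 genes of the matrix and of mesenchymal cells 2 were higher in Cornish and 7 were lower, with 33 negative and a median of -0.21. That is 21.4% called, against 14.5% over all tested genes. Leaving out 1 library gave 3 lower members without Cornish replicate 4 or 5 and 13 without Ogye replicate 2, and 5 of the 7 stayed called without Ogye replicates 1, 2 and 3. POSTN, a matrix protein of activated fibroblasts, was at 6.88, 6.89, 8.32, 6.84 and 9.01 CPM in Cornish and at 34.6, 25.3, 52.3, 41.8 and 18.2 CPM in Ogye. All Ogye libraries were above all Cornish libraries, which were tight (-2.19 ± 0.25, adjusted p = 0.00091). VIM, the intermediate filament of mesenchymal cells, was at 7.46 to 9.61 CPM in Cornish and 12.1 to 19.6 CPM in Ogye (-0.96 ± 0.15, adjusted p = 0.0026), and fibrillin FBN1 was lower by 0.42 on the log2 scale (-0.42 ± 0.10, adjusted p = 0.020). TIMP2, an inhibitor of matrix proteases, was higher by 0.62 ± 0.11 (adjusted p = 0.0043). These 4 genes stayed called without Ogye replicates 1, 2 and 3. LAMB3, a laminin chain of epithelial basement membranes, was at 0.944 to 3.98 CPM in Cornish and 7.89 to 14.5 CPM in Ogye (-2.25 ± 0.40, adjusted p = 0.0062), and just missed the threshold without those libraries (-2.50, adjusted p = 0.051).

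Some genes of the clock, stress and cell cycle lists were called. NPAS2, a paralogue of CLOCK in the activating arm of the clock, was at 3.62, 2.84, 3.72, 1.83 and 2.91 CPM in Cornish and at 11.9, 10.9, 13.2, 11.8 and 7.97 CPM in Ogye. The breeds were well apart (-1.90 ± 0.20, adjusted p = 0.00043). ARNTL, the shared partner of CLOCK and NPAS2, was lower by 0.69 on the log2 scale (-0.69 ± 0.17, adjusted p = 0.022) and lost its call without Cornish replicate 4 or Ogye replicate 3 (adjusted p = 0.052 each). Of 20 clock genes 1 was higher and 3 were lower (20% called, against 14.5% over all tested genes), and the hour of sampling is not given. ERN1, a sensor of unfolded protein, was higher by 1.10 ± 0.14 (adjusted p = 0.0012) within a list of 54 chaperone and folding genes that had 2 higher and 5 lower. The share called in that list was 13%, against 14.5% over all tested genes. Of 48 cell cycle genes 2 were lower and the others not called, a share of 4.17%, below the 14.5% over all tested genes. The lower ones included the kinase inhibitor CDKN2B, at 1.75 to 2.84 CPM in Cornish and 3.10 to 16.5 CPM in Ogye (-1.999 ± 0.37, adjusted p = 0.0074). With a W-linked covariate, which cannot be told apart from the breed, its sign turned (0.06). HEPH, a copper ferroxidase that helps iron leave cells, was higher by 1.22 ± 0.16 (adjusted p = 0.0011), and SCARB1, which takes up lipoprotein cholesterol and carotenoids, by 0.84 ± 0.15 (adjusted p = 0.0053).

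A duplication at EDN3 on chromosome 20, which encodes an endothelin that drives pigment cells, underlies the black connective tissue of fibromelanotic chickens such as Ogye. EDN3 was at 0.354 to 0.610 CPM in Cornish and 0 to 0.853 CPM in Ogye, too low to be tested. Of 43 named genes within 500 kb of it 32 were tested, 4 were higher in Cornish and 1 was lower, which is 15.6% of those tested and close to the 14.5% over all genes. ATP5E (11228568 to 11229745) was at 169, 175, 164, 161 and 193 CPM in Cornish and at 51.9, 60.7, 63.1, 77.8 and 108 CPM in Ogye. All Cornish libraries were above all Ogye libraries (1.25 ± 0.18, adjusted p = 0.0019). CTSA, a lysosomal carboxypeptidase, and ACOT8, a peroxisomal thioesterase, were higher by 0.92 ± 0.13 (adjusted p = 0.0017) and 1.11 ± 0.23 (adjusted p = 0.012). At 5 weeks, with all 20 libraries on one scale, these genes ran the other way. CTSA was then at 82.2 to 111 CPM in Cornish and 124 to 243 CPM in Ogye. ATP5E was at 70.05 to 97.85 and 181 to 458 CPM, and ACOT8, with overlap, at 24.4 to 38.9 and 30.6 to 99.2 CPM. Of 5 tested pigment and melanocyte genes edgeR, DESeq2 and limma-voom called 0, 1 was lower at an unadjusted p below 0.05, and 17 of that list's 22 genes were too low to be tested.

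The breed difference at 10 weeks was also tested against that at 5 weeks, as an interaction over the 20 libraries. It was called for 2500 of 10697 genes (23.4%), 1491 of 10957 without Ogye replicates 3, 4 and 5 at 5 weeks. Of the 1474 genes called at 10 weeks 999 were called by the interaction, and 975 of those had opposite signs at the 2 ages. The interaction is the difference of the 2 breed differences, so choosing genes by it favours opposite signs. The unselected count is the 385 of 1474 (26.1%) with the same sign. The interaction of URAH was 7.75 ± 0.56 on the log2 scale (adjusted p = 1.8e-07), that of SULT1B1 6.16 ± 0.53 (adjusted p = 1.2e-06) and that of APOV1 11.1 ± 1.41 (adjusted p = 8.3e-05). BLB1 and ATP5E had 3.92 ± 0.50 (adjusted p = 8.3e-05) and 2.93 ± 0.32 (adjusted p = 4.8e-05). In the other direction stood CDHR5 at -9.86 ± 1.27 (adjusted p = 9.2e-05), GPR173 at -6.01 ± 0.83 (adjusted p = 0.00019) and LYG2 at -4.65 ± 0.62 (adjusted p = 0.00012). The sizes for APOV1 and CDHR5 rest on groups near 0 CPM and are uncertain. APOV1 was at 0 to 0.309 CPM in Cornish at 5 weeks. CDHR5 was at 0 to 0.876 CPM in Cornish at 10 weeks and 0 to 1.1 CPM in Ogye at 5 weeks. Without Ogye replicates 3, 4 and 5 at 5 weeks the sizes were 9.98 and -11.7. IGF1 was at 16.4 to 27.6 CPM in Cornish and 15.7 to 29.8 CPM in Ogye at 5 weeks, so its breeds overlapped then.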

How the data were processed

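Liver RNA was made into stranded total RNA libraries after removal of ribosomal and globin RNA, per the labels' protocols. The authors deposited raw counts for each library. Per the submitters' processing notes, FastQC, MultiQC, STAR, featureCounts and the build GRCg7b were used. Tool versions, the assembler and the use of strand in counting are not stated in the labels. Reads of overlapping genes on opposite strands may therefore be shared. Positions come from RefSeq for GRCg7b, where 12769 named entries matched by symbol and 603 by a synonym. Assembled entries held 30.4% to 37.0% of the counts of a 10-week library and 9 entries without a name held 0.0126% to 0.0189%.

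Named genes were filtered with filterByExpr, scaled with TMM and tested by the robust quasi-likelihood test of edgeR 4.0.16 (R 4.3.3) on the 10 libraries, 2-sided, with Benjamini-Hochberg adjustment. The spread was taken from these 10 libraries because earlier results of these data set 3 Ogye libraries at 5 weeks apart. The interaction used all 20. The standard error is the log2 fold change divided by the square root of F. Both fits were tested on simulated data. For a log2 fold change of 1, the 10-week test recovered 28.6% of changed genes and the interaction 9%. For a log2 fold change of 2 these were 99% and 81.8%. A gene that was not called may therefore still differ. The simulation held no shift shared by many genes of a library, so it does not cover such shifts. Its spread was preset, similar for all genes and the same in both breeds, and was not taken from these data. For the 10-week test it changed 98 of 10133 genes by 1 and 96 by 2, while 14.5% were called here. The recovered shares hold for that setting and do not measure the power of the tests on these data.

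Members, the 44 gene lists and tests were chosen with earlier results of these data known. Named genes are the 12 highest and 12 lowest called log2 fold changes with at least 2 CPM and no overlap, the 8 largest CPM differences each way, up to 5 members per list by adjusted p, 19 fixed genes, and the 6 highest and 6 lowest interactions among genes called at 10 weeks. A choice from these is described. CP, FGA, FGB, FGG, AHSG, BG1, CTSA, ACOT8, IRS1, ERMP1 and RNF149 were chosen after their values were seen. Alternatives were relative log expression factors, DESeq2 1.42.0, limma 3.58.1 voom with library quality weights (limma-voom in the text), 2 filters and the replicate number as a block. Further ones were a W-linked covariate, a gene length offset, no Z or W genes, all entries, all 20 libraries, 17 libraries and each library left out. Leaving out Ogye replicates 1, 2 and 3 was added after the data were seen. Some results are not reported here.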

Additional observations from a re-analysis of the deposited data

Results flagged for a closer look

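Of 210 sets of 5 libraries screened, 27 had 1 library far from the other 4, where chance gives about 1 in 20 for normally distributed values. The screen used CPM without a log scale, and the sets share the same libraries, so the 27 cannot be compared with that share. Explanations were not tested. In Cornish, replicate 1 was high for CYP2C18 (2102 CPM, others 936 to 1232), SLCO2B1 (53.4), SCARB1 (33.4) and TGM3 (0.869), and low for GHR (453, others 607 to 635) and BLB1 (36.6, others 58.7 to 65.5). Cornish replicate 2 was high for UGT1A1 (1723), GSTT1L (114), GCLC (306) and CA4 (390 CPM). Cornish replicate 3 was high for ACSS2 (304) and SAA (628), and replicate 5 for CPT1A (311 CPM, others 98.5 to 128).

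In Ogye, replicate 1 was high for AvBD7 (74.1 CPM, others 5.26 to 20.6), TGM3 (14.3), LECT2 (191), CATH2 (17.8), EPX (18.7) and IGFBP2 (2.25 CPM). The summed heterophil markers were highest in replicate 5 (9478 CPM, against 5007 CPM in replicate 1). In replicate 5 AvBD7, LECT2, TGM3, CATH2 and LYG2 were the lowest of the Ogye libraries, at 5.26, 10.3, 1.02, 1.10 and 419 CPM. Most of that sum came from other markers of the list. Ogye replicate 2 was high for CISH (205 CPM, others 48.0 to 58.1), IGF2 (76.9), IFT80 (398) and CYP2C18 (132). Ogye replicate 3 was high for RNASE6 (37.2), replicate 4 for CYP1A1 (10.6) and CD28 (5.68), and replicate 5 for LAMB3 (14.5 CPM).

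Of the genes screened, 15 are listed here whose breed difference at 10 weeks differed from that at 5 weeks by the interaction test of edgeR. Other genes named above were also called by this test, such as CPT1A (adjusted p = 0.00078), GHR (adjusted p = 0.0012) and IGF1 (adjusted p = 0.014). Among the 15, the log2 fold change at 10 minus that at 5 weeks was positive for APOV1 (11.1), URAH (7.75), SULT1B1 (6.16), CYP2C18 (5.67), CA4 (5.43), the kinase CDK3 (4.62), BLB1 (3.92) and ATP5E (2.93). It was negative for CDHR5 (-9.86), GPR173 (-6.01), LYG2 (-4.65), TGM3 (-4.45), CYP1B1 (-4.07), LAMB3 (-3.91) and ACSBG2 (-3.90). The sizes of APOV1 and CDHR5 rest on groups near 0 CPM.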

How the results depend on the processing

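Against 1474 calls (818 higher, 656 lower), the replicate block gave 770 (497 and 273), the W-linked covariate 790 (348 and 442) and a fit to all 20 libraries 818 (434 and 384). DESeq2 gave more calls, 2111 (1094 and 1017), as did limma-voom with its quality weights for libraries, 1935 (1080 and 855). Leaving out Ogye replicates 1, 2 and 3 gave 448 (268 and 180), with 7 libraries. Leaving out 1 library gave 751 to 1919 calls, 484 to 1040 higher and 261 to 879 lower. Same-numbered libraries of the breeds deviated with correlations from -0.11 to 0.192, and 1 of 5 correlated best with its own number, so the numbers were not taken to pair birds. The interaction, 2500 calls, gave 5756 with limma-voom, 1148 with the W-linked covariate, 1491 without 3 Ogye libraries at 5 weeks, 946 without Ogye replicates 1, 2 and 3 at 10 weeks, and 1932 to 3599 without 1 library. Of 101 genes screened 92 were called, 82 kept their call in every single omission, 52 without Ogye replicates 1, 2 and 3, and 54 lost it under the W-linked covariate, where GHR (0.04) and CDKN2B (0.06) turned sign. That covariate differs between the breeds without overlap, so the 2 cannot be told apart. The cause of these moves was not tested. Depth limits the low genes, such as EDN3, which could not be tested.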
